A study of Danio rerio with 2 samples.

Results

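The zebrafish gene selenoe (Refseq NM_001195784, older name fep15) codes for a selenoprotein of the endoplasmic reticulum that is known from fish. All rows of the deposited intron table under that Refseq ID were taken, which gave 3 listed introns of 55660 and 1 gene of 10223 with a gene value. The gene was selected on its measured gene values, which were far lower in the mutant library. Every value of it in the contrast of the genotypes is therefore a description, without a test. The table holds 1 library of homozygous wildtype larvae and 1 library of larvae homozygous for the clbns841 allele (clbn, caliban). Each library came from whole larvae at 108 hours post-fertilization, genotyped singly and pooled to about 60 animals. Both groups were raised at 28.5 °C and received 0.003% phenylthiourea (PTU) from 24 hours on, which blocks pigment. The series asks how intron retention and gene expression differ in a mutant deficient in splicing of U12-type introns, a rare class removed by the minor spliceosome.

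Selenoproteins carry selenocysteine, an amino acid that the ribosome inserts at a UGA codon, which would otherwise stop translation. A hairpin in the untranslated end of the messenger RNA, called SECIS, and a dedicated elongation factor make this reading possible. The selenoe protein belongs to a small family with selenof (older name Sep15) and selenom, whose members have a thioredoxin-like fold and lie in the endoplasmic reticulum. In mammals, selenof binds UGGT, the enzyme that checks the folding of glycoproteins. When an intron is not removed, the messenger RNA keeps intronic sequence, and such RNA may be translated differently, held in the nucleus or degraded.

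The libraries were of similar depth, 28309779 reads for wildtype and 25718058 for clbn, and the median gene held 356 and 335 reads. With 1 library a group no value has a replicate error. Intervals given here are exact 95% intervals that reflect counting alone, and PCR copies among the reads make the true error larger. The gene rnpc3, which is mutated in caliban as far as background knowledge goes, lies on chromosome 24 and had gene values of 5.70 in wildtype and 2.503 in clbn, a ratio of 0.440 (0.349 to 0.551). In whole larvae, fewer cells that use a gene and less of its RNA per cell cannot be told apart.

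The transcript of selenoe was abundant in wildtype larvae and much scarcer in mutants. Its deposited gene value was 87.5 (83.3 to 91.9) in the wildtype library and 19.7 (17.7 to 22.0) in the clbn library. No header states the unit, which was taken here as reads scaled by unique exon length and library size. The reads behind these values were 1591 and 326 over 642 bp of unique exonic length, as the smallest whole solution. The gene was thus 4.43-fold lower in clbn (3.93 to 5.01), a log2 ratio of -2.15. In wildtype larvae 94.5% of the 10175 genes with at least 20 reads had a lower gene value, and in clbn larvae 77.6% did. In the clbn library selenoe still stood above the median gene, whose value was 8.09 there and 7.79 in wildtype.

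Its ratio of 0.226 was number 5 from the lowest of those 10175 genes, or number 4 on the log2 scale with a pseudocount of 0.5 reads. At least 2-fold lower on that scale were 1.09% of the genes, and 0.835% were at least 2-fold higher. Below it in ratio were amy2a (0.214, pancreatic amylase) and the lens galectin gene grifin (0.203). On few reads, tspan33b had 41 in wildtype and 4 in clbn (0.107, 0.0279 to 0.297) and si:dkeyp-73d8.6 had 21 and 4 (0.2097, 0.0523 to 0.621). The pseudocount places si:dkeyp-73d8.6 just above selenoe. Next above it were the elastase gene cela1.3 (0.238) and the lipase gene cel.1 (0.252). Wildtype reads numbered 249 for grifin and 16041 for amy2a, so amy2a and selenoe were the best covered of the 5 genes with the lowest ratios. The ratio of selenoe and that of amy2a (0.206 to 0.223) had intervals that overlap.

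**Figure D1:**
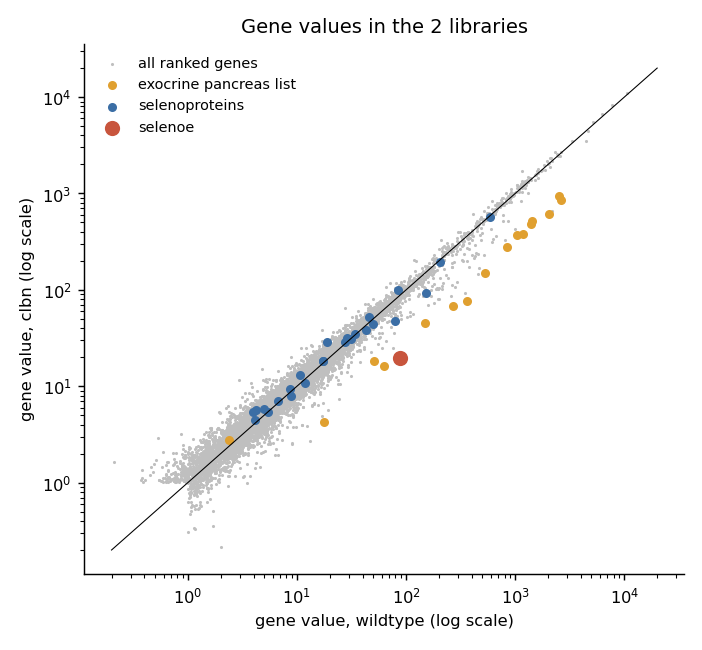
Gene values in the wildtype library (x axis) and the clbn library (y axis), both on log scales. They are taken as reads scaled by length and library size. Each ranked gene is 1 point, and the line marks equal values. The red point, selenoe, lies at 87.5 and 19.7, farther below the line than the other selenoprotein genes (blue). Some genes of the exocrine pancreas list (orange) lie near it. The gene was selected on these values, so its place is a description only.

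Among the introns of selenoe, intron 2 was higher in clbn, while introns 1 and 3 had too few reads to show a direction. All 3 listed introns lie on the plus strand of chromosome 5 in build Zv9. Intron 1 spans chr5:12487721-12490030 (2310 bp), intron 2 chr5:12490108-12490350 (243 bp) and intron 3 chr5:12490430-12492372 (1943 bp). They are numbered as listed, in the direction of transcription, and are separated by gaps of 77 and 79 bp, the length of short exons. No listed intron of another gene overlaps them.

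Wildtype larvae gave 3 reads in intron 2 and clbn larvae 33. Its level in RPuKM, reads scaled by unique intron length and library size, was 0.436 (0.0899 to 1.27) in wildtype and 5.28 (3.63 to 7.42) in clbn. The clbn library was the high one, and the intervals do not overlap. Scaled by library size the ratio was 12.1, with a counting interval of 3.798 to 61.7 that is wide because of the 3 wildtype reads. All 243 bp of the intron counted as unique sequence.

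Intron 1 held 9 reads in wildtype and 3 in clbn, and intron 3 held 3 and 1. Their levels were 0.147 and 0.0538 RPuKM for intron 1 and 0.0610 and 0.0224 RPuKM for intron 3. Here wildtype was the high library in each. Each had a ratio of 0.367, with intervals of 0.0639 to 1.47 for intron 1 and 0.00699 to 4.57 for intron 3, which hold both the ratio of the gene (0.226) and 1. Together these outer introns had 12 and 4 reads (ratio 0.367, 0.0863 to 1.21). At this depth no gain in them was detectable, and the higher intronic signal of the gene lay in intron 2. That intron makes up 5.86% of the unique intron length listed for selenoe, and it took 3 of 15 intronic reads in wildtype and 33 of 37 in clbn (89.2%).

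**Figure D2:**
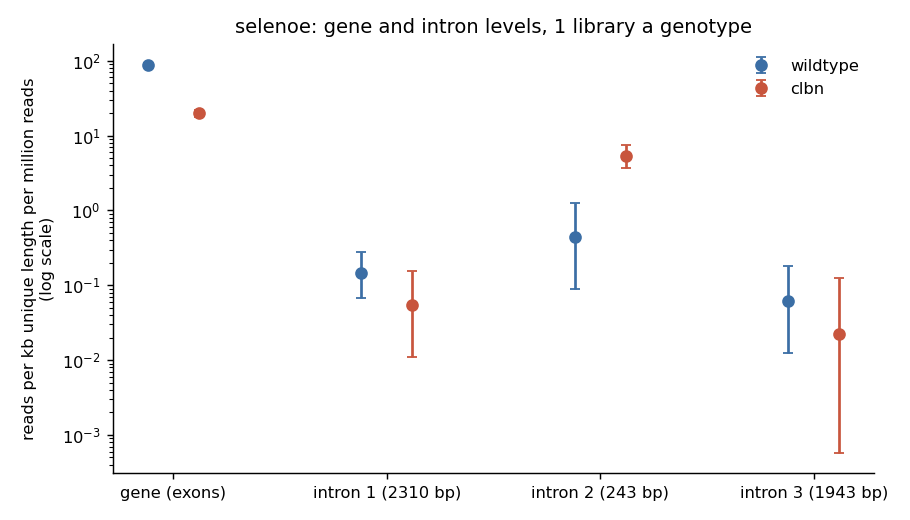
Level of the selenoe gene and of its 3 listed introns (y axis, log scale), with 1 library a genotype and bars for exact 95% counting intervals. The unit is reads scaled by unique length and library size, which for the gene is inferred. The gene was lower in clbn (87.5 and 19.7), intron 2 higher (0.436 and 5.28), and the intervals of introns 1 and 3 overlap between the libraries.

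Set against the gene itself, the change at intron 2 was larger still. That added size is the drop of the gene, for which selenoe was selected, and it raises every listed intron of the gene alike. The retention coefficient divides the level of an intron by that of its gene. For intron 2 it was 0.498% in wildtype and 26.7% in clbn. For intron 1 it was 0.168% and 0.273%, and for intron 3 0.0697% and 0.113%. Counting the error of gene reads as well, the odds ratio was 53.5 for intron 2 (16.6 to 274), 1.63 for intron 1 (0.282 to 6.56) and 1.63 for intron 3 (0.0309 to 20.3). Of 20223 introns, those whose reads in the 2 libraries sum to at least 20, 87.7% had a lower coefficient than intron 2 in clbn. Intron 2 passed that minimum through its 33 clbn reads, and its clbn coefficient is divided by the low gene value for which selenoe was selected. Its place in clbn is therefore a description only, and its place in wildtype is not read. The median of those introns hardly differed, at 0.0323 in wildtype and 0.0331 in clbn as a fraction of the gene level.

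**Figure D3:**
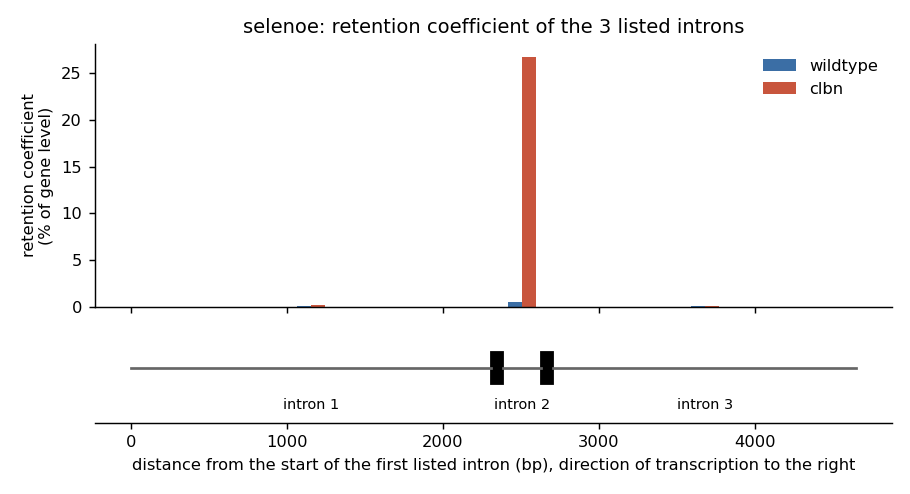
Retention coefficient of the 3 listed introns as a percent of the gene level (upper y axis, bars, wildtype and clbn library) above a map to scale of the introns (lines) and of the gaps between them (boxes), by distance in bp from the start of intron 1. The bar of intron 2 in clbn stands at 26.7%, and all others are at or below 0.498%.

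Ranked from the highest ratio of retention (log2 5.54, with a pseudocount of 0.5 reads), intron 2 was number 11 of 20223 introns. Ranked by its own level alone (log2 3.40), without the gene reads, it was number 95. Intron 2 entered this ranking through its clbn reads, the library where it is high, and the gene was selected for its low clbn value. Both places are therefore descriptions only. Introns without a read in each library are not listed, so larger gains may be missing from both rankings. At least 8-fold higher in level were 0.692% of the introns, and in retention 0.633%. The 4.43-fold lower gene value enters the retention ratio and not the level ratio. When the level of intron 2 was taken off the gene value, 87.1 remained in wildtype and 14.5 in clbn (12.3 to 16.1 from the error of the intron alone), which is 6.02-fold lower. This quantity approximates transcripts without intron 2 and takes coverage as even along the RNA. It was computed after the values were seen.

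The length of intron 2 is a multiple of 3 bases, 81 codons. Whether it holds a stop codon was not analysed here, and nor were its splice sites. The table does not class introns, so it does not show by itself which spliceosome removes intron 2. Of 601 ranked introns of 200 to 300 bp, 3 were at least 8-fold higher in level (0.499%, beside 0.692% of all ranked introns). The median log2 ratio of the 601 was 0.02. The 3, named after their values were seen, were intron 2 of selenoe, an intron of the phosphatase subunit gene ppp2r2d (4 and 65 reads) and an intron of the kinase gene araf (2 and 18 reads). The genes ppp2r2d and araf had gene ratios of 1.09 and 0.865, so neither showed the drop seen for selenoe.

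Of 71 genes that were at least 2-fold lower and had a ranked intron, 3 had an intron at least 4-fold higher in level (4.23%). The selected gene selenoe is itself among the 3, and without it 2 of 70 remain. Among genes that changed by less than 2-fold the share was 4.52%, and among those at least 2-fold higher it was 27%. Intron level is not divided by gene level. A 4-fold rise thus asks for a larger rise in retention in lower genes than in higher ones, and the 3 shares are not directly comparable. The other two lower genes were the molybdopterin synthesis gene mocs3 (ratio 0.463, intron reads 4 and 30) and a gene listed as NM_199877 without a symbol (ratio 0.495, intron reads 1 and 49). With a gene ratio of 0.226, selenoe was the lowest of the 315 genes that had an intron at least 4-fold higher. That place follows largely from the selection of selenoe for its low clbn value and is a description only. The median log2 gene ratio of those 315 genes was 0.08, against 0.05 for all ranked genes.

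In the other lower genes most ranked introns were lower like the gene. Of 234 ranked introns in 70 genes at least 2-fold lower, selenoe left out, 217 were below 0 on the log2 scale. Of all 20223 ranked introns 9287 were below 0. Among the 234, 171 (73.1%) were at least 2-fold lower, against 7.05% of all ranked introns. The median log2 level ratio of the 234 was -1.41. At least 4-fold higher were 2 of the 234 (0.855%), against 1.77% of all ranked introns. Intron levels here are not divided by the gene level, so they carry the change of the gene. Intron 2 of selenoe, at 3.40, lay on the opposite side. Introns 1 and 3 of selenoe were too thinly covered to be ranked.

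**Figure D4:**
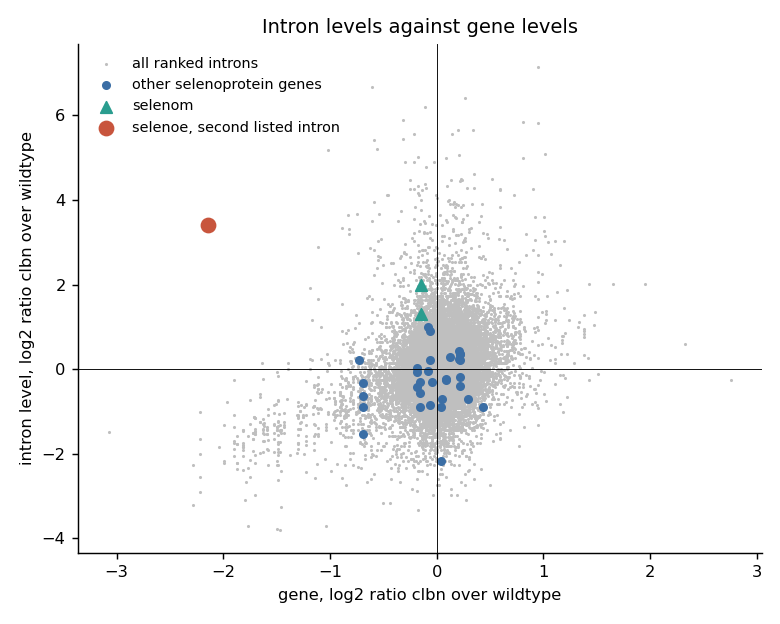
Log2 ratio of intron level, clbn over wildtype (y axis), against the log2 ratio of the gene (x axis), with 1 point for each ranked intron. Intron 2 of selenoe (red) lies at the upper left at -2.15 and 3.40, and selenoe was selected for its low gene ratio. Introns of mocs3 and NM_199877 also lie to the upper left, at gene ratios of 0.463 and 0.495. The 2 long introns of selenom (green) lie above most introns of other selenoprotein genes (blue).

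The closest relatives of selenoe differed from it in gene level and in part resembled it in introns. The gene value of selenof was 18.8 in wildtype and 28.6 in clbn, a ratio of 1.52 (1.35 to 1.72). That of selenom was 8.81 and 7.94, with a ratio of 0.902 (0.670 to 1.21) that does not exclude 1. So selenoe had the highest level of the 3 in wildtype, and in clbn it lay below selenof and above selenom. The introns of these relatives were examined after the values of the list had been seen. The 4 listed introns of selenof held 18 reads in wildtype and 22 in clbn in all (ratio 1.35, 0.689 to 2.66), too few to rank any of them.

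In selenom, both long introns were higher in clbn. The one at chr5:72143606-72147136 had 15 and 55 reads, a level ratio of 4.04 (2.25 to 7.69). Its retention coefficient was 0.0254 in wildtype and 0.114 in clbn, an odds ratio of 4.45 (2.29 to 9.10). The one before it, chr5:72140352-72143526, had 15 and 34 reads (level ratio 2.495, 1.32 to 4.93), and its coefficient went from 0.0257 to 0.0712. These introns are separated by a gap of 79 bp, the same length as the gap after intron 2 of selenoe. In selenom the introns on both sides of that gap were higher in clbn. In selenoe the intron before the gap was higher. The one after it had 3 and 1 reads (level ratio interval 0.00699 to 4.57), too few to tell. Whether the 2 gaps correspond was not tested. The first listed intron of selenom had 1 read in each library.

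The other measured selenoprotein genes did not show a drop of that size. Of 37 genes on the selenoprotein list 26 had a gene value with at least 20 reads. The selected gene selenoe was the sole member at least 2-fold lower, with 0 at least 2-fold higher. Of all ranked genes 1.09% were at least 2-fold lower and 0.835% at least 2-fold higher, so such calls are rare in any short list. Without selenoe the median log2 ratio of the 25 others was 0.05, as for all ranked genes, and their ratios ran from 0.603 to 1.52. By level in wildtype, selenoe was number 4 of the 26, after selenop (593, the selenium carrier of plasma), selenow1 (206, a small thioredoxin-like protein) and gpx4a (151, a glutathione peroxidase for membrane lipids). Its neighbour gpx4b, at 85.1 (81.5 to 88.8), had an interval that overlaps that of selenoe. In clbn selenoe was number 14, next to the selenophosphate synthetase gene sephs3 at 18.5 (17.6 to 19.4) and selenos at 18.5 (16.5 to 20.6), whose intervals overlap its own.

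The members closest to selenoe in ratio were glutathione peroxidases. The gene value of gpx1a, the cytosolic enzyme, was 78.8 in wildtype and 47.5 in clbn (ratio 0.603, 0.561 to 0.647). For gpx4a it was 151 and 93.7 (0.620, 0.588 to 0.654), while its duplicate gpx4b had 85.1 and 99.4 (1.17, 1.10 to 1.24). Plasma glutathione peroxidase, gpx3, had few reads (82 and 101) and a ratio of 1.36 (1.00 to 1.84). The interval of selenoe, 0.1996 to 0.254, lies below the intervals of all 25 others. That separation follows largely from the selection of selenoe for its low clbn value and is a description only.

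The remaining members lay close to 1. Above it were selenon, which acts on calcium handling in the endoplasmic reticulum (1.33, 1.15 to 1.54), selenot1b (1.23), selenot2 (1.15) and selenot1a (1.09), which code for thioredoxin-like proteins of the same compartment. The deiodinase gene dio1 (1.16, 0.952 to 1.42), the methionine sulfoxide reductase genes msrb1b (1.08) and msrb1a (1.03), selenou1b (1.09), selenos (1.07), selenok (1.03), sephs3 (1.06) and the thioredoxin reductase gene txnrd3 (1.03) had intervals that hold 1. In mammals, selenos and selenok work at the membrane where misfolded proteins leave the endoplasmic reticulum. Below 1 were selenop (0.959, 0.945 to 0.974), selenow1 (0.943, 0.889 to 0.9998) and selenow2a (0.879). Also below it were selenow2b (0.896), selenoj (0.917), selenou1a (0.971) and selenoo1 (0.992), whose intervals hold 1. With scaling by TMM or by the median of ratios, all ratios shift by a log2 value of -0.05, which moves members such as txnrd3 to the other side of 1.

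**Figure D5:**
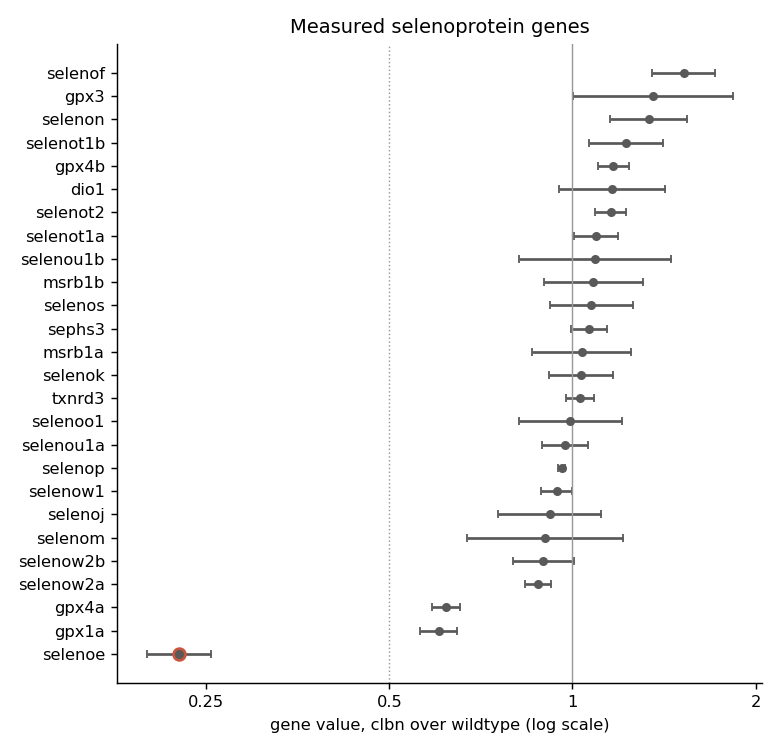
Gene value ratio, clbn over wildtype (x axis, log scale), of the 26 measured selenoprotein genes with exact 95% counting intervals, with a solid line at 1 and a dotted line at 0.5. The red point is selenoe at 0.226, and the next lowest are gpx1a at 0.603 and gpx4a at 0.620.

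Introns of these genes likewise showed no common gain. Of 34 ranked introns in 16 other selenoprotein genes, 2 were at least 2-fold higher in level on the log2 scale with pseudocount, beside 9.02% of all ranked introns, and 2 were at least 2-fold lower, beside 7.05%. The 2 higher ones were those of selenom. Their median log2 level ratio was -0.24. The lowest was an intron of txnrd3 with 17 and 3 reads (ratio 0.194, 0.0365 to 0.672).

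The machinery that makes selenoproteins was measured through 9 of the 14 genes listed, and 0 of them were 2-fold changed in either direction. Of all ranked genes 1.09% were at least 2-fold lower and 0.835% at least 2-fold higher, so the count of 0 says little. The median log2 ratio of the 9 was 0.20 against 0.05 for all ranked genes. The highest was eefsec, the elongation factor for selenocysteine, with 67 and 95 reads (1.56, 1.13 to 2.17), and the lowest was sepsecs, the enzyme that makes selenocysteine on its tRNA (0.853, 0.589 to 1.23). The members with most reads, ncl and rpl30, which bind SECIS elements in mammals, had ratios of 1.08 each.

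Genes for folding and disulfide formation in the endoplasmic reticulum, the compartment of the selenoe protein, were mostly on the higher side. Of 29 measured members of 34, 26 were above 0 on the log2 scale and 3 below. Of all 10175 ranked genes 6009 were above and 4166 below. The median of the members was 0.33 against 0.05 for all genes. None was 2-fold changed, beside 1.09% of all ranked genes at least 2-fold lower and 0.835% at least 2-fold higher. At the ends were creld2 (1.92, 1.43 to 2.59), which rises with stress of this compartment, and the oxidase gene ero1b (0.814, 0.682 to 0.970). The disulfide isomerase genes pdia3 and p4hb, which had most reads, were at 1.21 (1.16 to 1.25) and 1.26 (1.20 to 1.32). The gene uggt1, whose protein is the partner of selenof in mammals, was at 1.26 (1.06 to 1.499).

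Among redox enzymes without selenocysteine, 22 of 26 listed genes were measured, with 15 below and 7 above 0 and a median of -0.08. Of all 10175 ranked genes 4166 were below and 6009 above 0, with a median of 0.05. The heme oxygenase gene hmox1a was 2-fold lower (0.449, 0.383 to 0.525). It was the sole member past that fold, beside 1.09% of all ranked genes lower and 0.835% higher. The highest was glrx5, a mitochondrial glutaredoxin (1.40, 1.21 to 1.62). The glutathione transferase gene gstp1.2 and the peroxiredoxin gene prdx2, which had most reads, were at 0.814 and 0.859.

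Markers of several organs were lower in clbn too. Of 16 measured exocrine pancreas genes 15 were at least 2-fold lower (background 1.09%), and their summed gene values were 14535 in wildtype and 4825 in clbn, a ratio of 0.332. The lowest were amy2a (0.214), cela1.3 (0.238), cel.1 (0.252), cel.2 (0.256) and cpb1 (0.285), prss1 and ctrb.1 had most reads (0.326 and 0.372), and ptf1a was highest at 1.16. Lens genes had 7 of 13 members 2-fold lower and sums of 1890 and 905. Of 11 intestine genes, 0 were 2-fold lower although all were below 1, with sums of 1880 and 1466. Of all 10175 ranked genes 4166 were below 0 on the log2 scale. The intervals of fabp6 (0.993, 0.943 to 1.05) and cdx1b (0.879, 0.752 to 1.03) hold 1, and those of the other intestine genes lie below it. Liver genes had 2 of 21 members 2-fold lower, cyp3a65 (0.268) and ahsg1 (0.289), and sums of 5449 and 5174. Apolipoprotein genes used by the yolk syncytial layer had 1 of 4, apoea (0.403), beside apoeb at 1.48, and sums of 1226 and 1144. Kidney genes had 0 of 10 and sums of 141 and 145. No measured marker was at 0 in either library. Genes are listed here only through introns with a read in each library, so this was nearly fixed beforehand. The sources used here do not say in which organs selenoe is used at this age, and the part of these organs in its lower value was not tested.

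By gene values in the 2 libraries, the genes most like selenoe were si:ch211-240l19.5 (76.7 and 25.2), cel.2 (62.6 and 16.1), si:dkey-14d8.6 (59.9 and 25.1), a gene without a symbol (65.5 and 29.2) and cpa1 (50.8 and 18.1). The measure of likeness was the distance on the log2 scale over the 2 values, which ran from 0.40 to 0.79 for these 5 genes. Their ratios, 0.256 to 0.446, were all above that of selenoe. On the exocrine pancreas list stand 2 of the 5, the lipase gene cel.2 and the carboxypeptidase gene cpa1. Likeness was measured on the same 2 values for which selenoe was selected, so genes near it are abundant and lower in clbn by construction. Of 16 measured genes on that list 15 were at least 2-fold lower, and no shared organ is read from the 2.

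The nearest neighbours listed on chromosome 5 had ratios between 0.801 and 1.32. The nearest listed gene, zgc:112294, has its listed introns from 3750 bp after intron 3 on and had a ratio of 0.801 (0.609 to 1.05), with introns of 3 and 7, 8 and 8, and 5 and 6 reads. The next on that side, nf2a and tesca, had ratios of 1.32 (0.997 to 1.75) and 1.00 (0.794 to 1.27). On the other side the nearest listed genes were chek2 (1.26, 0.575 to 2.78), gstt2 (1.09) and slc2a11b (0.826, 0.691 to 0.986), the closest of them 1510568 bp away. Of 629 ranked genes on the chromosome, 4 were at least 2-fold lower (0.636%, beside 1.09% of all ranked genes), and the median log2 ratio was 0.08 (0.05 for all).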

How the data were processed

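RNA-seq of whole larvae was compared between 1 wildtype and 1 clbn library, grouped by the genotype labels. Per the labels' protocols, poly(A) RNA was selected in 2 rounds and SOLiD libraries were amplified with 18 cycles. Submitters' processing notes name the build Zv9, while no aligner or counting tool is named in the sources used here. The deposited table holds whole-number read counts of introns that have a read in each library, and other introns are not analysed here. Per the file headers, intron levels are RPuKM (an RPKM over unique length). The authors' retention coefficient is the ratio of RPuKM to a gene value whose unit no header states. Deposited log2 and fold change columns played no part.

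Library sizes were recovered from counts, lengths and RPuKM. Gene reads are the smallest whole reads and length that give both gene values (within 1e-05 reads), found for 10223 of 10223 genes and tested on simulated data. A common factor may be missing, which leaves ratios as they are and widens intervals. Printed starts are the deposited ones plus 1. Names were taken from a Refseq table of GRCz12tu (9797 of 10223 IDs, 95.8%).

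Ratios are clbn over wildtype, scaled by library size, with exact conditional (Clopper-Pearson) intervals, or conditional odds ratios where gene reads enter (scipy 1.17.1). Log2 ratios carry a pseudocount of 0.5 reads and understate changes of thin features. Ranked genes and introns have 20 or more reads in all. No test was made. Alternatives were 3 other scalings (summed gene reads, median of ratios, TMM of edgeR 4.0.16), a pseudocount of 5, and a minimum of 0 or 100 reads. The gene, lists and comparisons were chosen with earlier results of these data known. The rule named all measured selenoproteins and, in other lists, the ends, members past 2-fold and those with most reads (only in part for marker lists), 3 neighbours on each side by ratio and position, and the 5 genes most like selenoe.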

Additional observations from a re-analysis of the deposited data

How the results depend on the processing

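The selenoe values kept their direction under every setting tried. The scalings shifted every log2 ratio by 0.02 or -0.05, too little to reverse a selenoe value, so under them this was fixed beforehand. The log2 gene ratio ran from -2.20 (median of ratios) to -2.12 (summed gene reads) around -2.15. The level of intron 2 ran from 3.34 to 3.42 over the scalings and was 2.39 with a pseudocount of 5 in place of 3.40, so its size depends on the 3 wildtype reads. Introns 1 and 3 went from -1.30 and -1.08 to -0.67 and -0.28 with that pseudocount. The log2 retention ratio over all 3 introns was 3.56 (3.34 with pseudocount 5), and 5.54 for the single intron with at least 20 reads, intron 2, since the sum adds the reads of introns 1 and 3. Genes at least 2-fold lower numbered 111, and from 84 (minimum of 100 reads) to 128 (median of ratios) otherwise. Across all results and settings, 87 of the alternative values stayed within the counting interval, the spread among list members or 1.5 times the count. The selenoprotein median of 0.05 was -0.0055 with median of ratios and -0.0041 with TMM scaling, so no direction is given for it. No paired analysis was possible because each group has 1 library, and no library could be left out for the same reason. Depth limits introns 1 and 3 most, at 12 and 4 reads over both libraries.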
